A study of Mus musculus with 24 samples.

Results

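Homing, adhesion and egress of bone marrow progenitors were examined through 9 genes that were chosen by name, with their levels in the 4 groups already known: the chemokine receptors Cxcr4 and Cxcr2, the sphingosine 1-phosphate receptor S1pr1, the selectin ligand Selplg, and the integrin subunits Itgal, Itga4, Itga6, Itgb1 and Itgb7. They are 9 of the 24091 genes in the deposited table of read counts, each was found there under its symbol, and each passed the filter on low counts. The data were bulk RNA-seq libraries of sorted LSKs, bone marrow cells that lack lineage markers and express Sca-1 and c-Kit, the fraction in which mouse stem and early progenitor cells lie. The 24 libraries fell into 4 groups of 6, and in each group 3 came from females and 3 from males. WT mice carried neither alteration, and miR-142 KO mice (genotype Mir142 KO) lacked miR-142 in the germline. CP CML mice (genotype BCR-ABL+) carried miR-142 and the SCLtTA/BCR-ABL transgenes, and BC CML mice (genotype Mir142 KO BCR-ABL+) combined the transgenes with the germline loss. Per the study's methods, the mice were C57BL/6, the SCL promoter drives BCR-ABL once tetracycline is withdrawn, and LSKs of CML mice were taken 2 weeks after that withdrawal. The germline loss affects each cell of the mouse, so an effect within LSKs and an effect of the other cells of the marrow cannot be told apart. Ages are not in the labels, and neither the labels nor the methods say whether WT and miR-142 KO mice also drank tetracycline.

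The shallowest library, a CP CML female, held 16267965 counts and the deepest, a BC CML male, 24687077. Mir142, the targeted gene, had 94 to 127 counts in each WT library, 68 to 153 in each CP CML library and 0 in each miR-142 KO and BC CML library, where a count of 0 allows up to 3 counts (counting error only). Of the genes behind the sort, Kit was at a mean of 801 to 1109 CPM over the 4 groups and Ly6a, the gene of Sca-1, at 41.7 to 110. Levels are in CPM, the usual per-library scaling of a read count, here with the TMM-scaled size of the library. Some lineage markers moved with the groups. The summed level of 10 mast cell or basophil markers was 94.0 to 603 CPM in WT libraries, 2209 to 4368 in CP CML, 287 to 2762 in miR-142 KO and 6257 to 13320 in BC CML, and that of 9 lymphoid-primed progenitor markers was 2206 to 3413 CPM in WT and 625 to 1727 in the 3 other groups. In bulk libraries, fewer cells of a type and less RNA per cell cannot be told apart.

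Stem and progenitor cells stay in the marrow and reach it from blood through a set of surface proteins. CXCR4 holds cells along the gradient of the chemokine CXCL12, CXCR2 answers neutrophil-attracting chemokines, and PSGL-1, the product of Selplg, lets cells roll on selectins. Integrins work as pairs of an alpha and a beta subunit: Itga4 pairs with Itgb1 or Itgb7 to bind VCAM1, fibronectin and MAdCAM1, Itga6 pairs with Itgb1 to bind laminin, and Itgal pairs with Itgb2 to bind ICAMs. S1PR1 guides cells out of tissue toward sphingosine 1-phosphate (S1P) in blood and lymph.

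The RNA that the KO groups lack is processed into a pair of mature strands, each of which recognises messages through its seed, bases 2 to 8, shown in capitals (RefSeq, GRCm38.p6).
mmu-miR-142a-3p: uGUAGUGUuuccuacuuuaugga
mmu-miR-142a-5p: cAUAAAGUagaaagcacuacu
The longest annotated 3′ UTR of each gene (GENCODE M21, GRCm38, which is mm10) was searched on the transcript strand for the 7 bases that pair with the seed, ACACTAC for the 3p and ACTTTAT for the 5p strand, or with its first 6 bases followed by A, CACTACA and CTTTATA. Both forms for a strand share those 6 bases, and where they coincide the match is 8 bases long. Among the 12609 tested genes with a 3′ UTR, 11.8% held at least 1 match for the 3p strand, 23.3% for the 5p strand and 30.4% for either. Of the 9 receptor genes, 4 held a match: Itga4, Itga6, Itgb1 and S1pr1. Cxcr4, Cxcr2, Selplg, Itgal and Itgb7 held none, and the 3′ UTR of Itgb7 was 165 bases long. A match is a string of letters and not a measured site. The matches below, in capitals within their flanks, are shown so that a reader can see which of the genes described here carry them.
Itga6, 3p strand, chr2:71856032-71856060 (+): aagaacacctcACACTACccaaagccccc
Itga4, 3p strand, chr2:79329207-79329235 (+): gatctactgctACACTACtgtcttccaca
Itga4, 3p strand, chr2:79332181-79332209 (+): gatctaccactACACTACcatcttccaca
Itgb1, 5p strand, chr8:128732706-128732734 (+): cgacgccttttCTTTATAaatccaacctt
S1pr1, 5p strand, chr3:115711307-115711335 (-): taccaccccttCTTTATAtcgtaactgcc
S1pr1, 5p strand, chr3:115711049-115711077 (-): taacgaagtctACTTTATttgaattatac
Itga4 had a further 3p match that overlaps the second one shown, and 5 matches for the 5p strand, in a 3′ UTR of 6508 bases. The genes that carry matches did not share a direction: in KO against WT LSKs, Itga6, Itga4 and Itgb1 were higher and S1pr1 was lower. Cxcr2 and Itgb7, which differed most between these groups, held no match. Over all tested genes, the median log2 fold change of the 1493 genes with a 3p match was 0.08 in BC CML against CP CML and 0.05 in miR-142 KO against WT, beside 0.02 in each for the 8776 genes with no match. For the 2942 genes with a 5p match it was 0.02 and -0.01.

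Because the genes were selected on levels already known in these libraries, their differences between groups are described with the spread between libraries and carry no test. Between genes, levels are comparable only per kilobase of the length that the deposited table gives. On that scale Itgb1 was the most abundant of the 9 in each group, from 92.8 ± 4.07 CPM per kb (SD, n = 6) in WT to 112.5 ± 4.66 in BC CML LSKs. Cxcr4, Selplg and Itga4 followed at group means of 54.3 to 88.9 CPM per kb. Itgal was at 39.1 to 46.6, Itga6 at 23.3 to 36.6 and Itgb7 at 17.7 to 44.6. The lowest were S1pr1 at 2.604 to 6.29 and Cxcr2 at 2.22 to 10.7 CPM per kb. The genes also differed in how far their groups lay apart: the range of the 4 group means on the log2 scale was 0.24 for Itga4, 0.26 for Itgal, 0.28 for Itgb1, 0.32 for Selplg and 0.39 for Cxcr4, against 0.64 for Itga6, 1.28 for S1pr1, 1.35 for Itgb7 and 2.34 for Cxcr2.

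**Figure D1:**
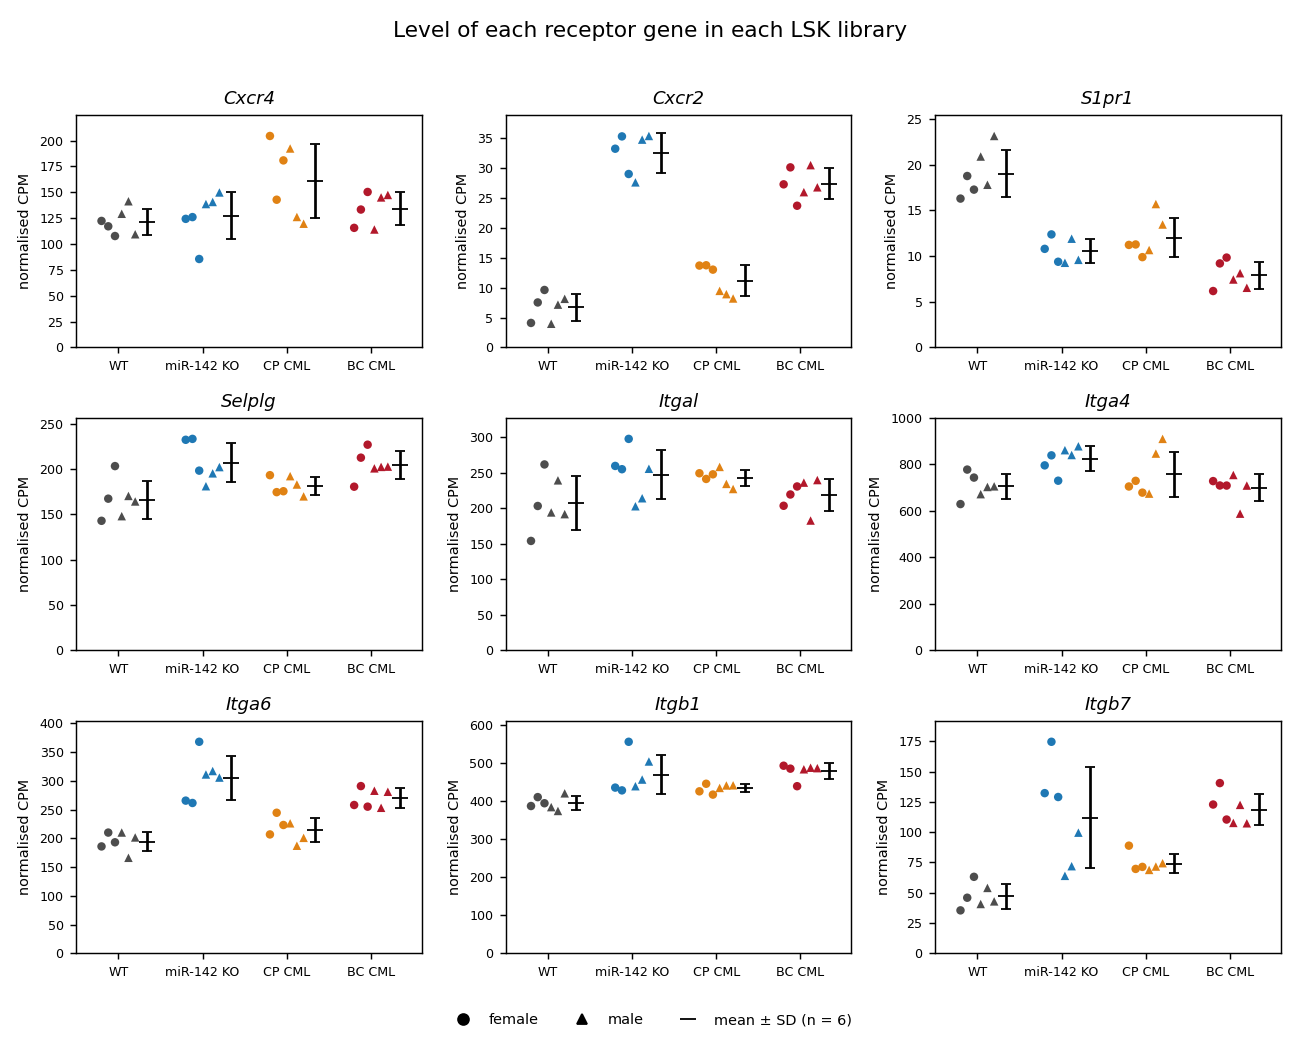
Level of each of the 9 genes in each of the 24 LSK libraries, in normalised CPM (y axis, from 0) by group (x axis). Circles are females, triangles are males, and the black mark is the mean ± SD of the 6 libraries. Cxcr2 in miR-142 KO (27.6 to 35.4) and BC CML libraries (23.7 to 30.5) sits above each WT and CP CML library, while S1pr1 in WT (16.3 to 23.1) sits above each library of the other groups.

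Cxcr2, a plus-strand gene of chromosome 1 (mm10, 74153994 to 74161246), separated the libraries by miR-142. In WT LSKs it was lowest at 3.96, had a median of 7.35 and was highest at 9.62 CPM, and in CP CML LSKs these were 8.19, 11.2 and 13.8 CPM. The miR-142 KO libraries lay at 27.6, 34.01 and 35.4 CPM, and the BC CML libraries at 23.7, 27.0 and 30.5 CPM. Each library without miR-142 was thus above each library with it, and the KO and BC CML values overlapped. Its mean in KO LSKs was 4.82 times that in WT (log2 fold change 2.27, SE 0.18), and its mean in BC CML was 2.45 times that in CP CML (1.30, SE 0.17). The difference of these effects was -0.97 (SE 0.24) on the log2 scale. Since KO and BC CML differed by -0.25 (SE 0.17), and CP CML and WT by 0.72 (SE 0.18), the larger part of that gap lay on the side of the controls. These counts were small, from 92 to 847 per library. Cxcr2 is best known on mature neutrophils, so their markers were read beside it. The summed level of 13 mature neutrophil markers was 192 to 266 CPM in WT libraries, 202 to 291 in CP CML, 282 to 511 in miR-142 KO and 316 to 382 in BC CML, with Csf3r, the G-CSF receptor gene that progenitors also express, giving 174 to 268 of this as group means. Ly6g, a defining marker of mature neutrophils and, like Camp and Ltf, picked after its values were seen, had group means of 0.022 to 0.085 CPM. Camp and Ltf, genes of neutrophil granules, were at 0.172 and 0.319 CPM in BC CML and at 6.65 and 6.43 CPM in miR-142 KO LSKs. Other markers of the list, also named after their values were seen, were not this low in BC CML. Cd177 was at 0.593 CPM in CP CML and 4.82 in BC CML, and Lcn2 at 38.0 and 64.9, while Mmp8 was at 8.40 and 3.46. S100a8 was at 5.725 CPM in WT, 7.085 in CP CML, 41.6 in miR-142 KO and 12.25 in BC CML. S100a9 was at 7.02, 5.599, 31.2 and 3.065 CPM in the same order of groups. Of the 12 tested mature neutrophil markers, 7 were higher in KO against WT, and 2 were higher and 3 lower in BC CML against CP CML (edgeR, adjusted p below 0.05). The part of mature cells in the level of Cxcr2 was not tested.

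Cxcr4, the receptor that retains progenitors in the marrow, is on chromosome 1 from 128588199 to 128592299 on the minus strand and did not separate the groups. Its lowest, median and highest values were 108, 120 and 141 CPM in WT and 119.6, 162 and 204 in CP CML libraries. They were 85.5, 132 and 149.8 CPM without miR-142 in KO and 114, 139 and 150.3 in BC CML libraries. Each pair of neighbouring groups overlapped. The highest mean was in CP CML at 161 ± 36.1 CPM (SD, n = 6), where 3 libraries lay at 180.8 CPM or above and the others at 142.8 or below. Cxcr4 was 1.33 times as high in CP CML as in WT (log2 0.41, SE 0.13) and differed by -0.26 (SE 0.13) between BC CML and CP CML and by 0.07 (SE 0.13) between miR-142 KO and WT. The ratio of the receptors therefore followed Cxcr2: per kb, Cxcr2 made up 3.28% ± 1.29 (SD, n = 6) of the sum of Cxcr2 and Cxcr4 in WT, 4.03% ± 0.824 in CP CML, 10.9% ± 1.47 in BC CML and 13.5% ± 2.09 in miR-142 KO LSKs. No library without miR-142 was below 8.59%, and none with it was above 5.42%.

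S1pr1, on chromosome 3 from 115710433 to 115715055 on the minus strand, was the 1 gene of the 9 that was lower both without miR-142 and with BCR-ABL. Its values were 16.3, 18.3 and 23.1 CPM (lowest, median and highest) in WT, 9.88, 11.2 and 15.7 in CP CML, 9.26, 10.2 and 12.4 in miR-142 KO, and 6.18, 7.78 and 9.84 in BC CML. WT stood above the other groups with no overlap, CP CML and KO overlapped, and the BC CML libraries were below each CP CML library. The mean in KO was 0.555 times that in WT (log2 -0.85, SE 0.13) and the mean in BC CML 0.655 times that in CP CML (-0.61, SE 0.13). CP CML was at 0.632 times WT (-0.66, SE 0.13), and BC CML at 0.747 times KO (-0.42, SE 0.13) with ranges that overlapped. The lymphoid-primed markers given above were also highest in WT. B cell markers, 10 of them in the table, summed to 68.7 to 948 CPM in WT and 163 to 733 in CP CML libraries. They summed to 27.0 to 45.9 in miR-142 KO and 28.5 to 40.1 in BC CML, with no overlap by miR-142. In WT and CP CML the sum came mainly from Jchain, with group means of 423 and 333.5 CPM, against 2.996 in KO and 5.05 in BC CML. Of the 8 tested B cell markers, 1 was lower in KO against WT and 2 in BC CML against CP CML (edgeR, adjusted p below 0.05). The part of either list in the level of S1pr1 was not tested.

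Itgb7, on chromosome 15 from 102215995 to 102231935 on the minus strand, differed most between groups among the 5 chosen integrin subunits. Its lowest, median and highest values were 35.4, 44.3 and 63.1 CPM in WT, 68.8, 71.5 and 88.8 in CP CML, 107.3, 116.5 and 140.5 in BC CML, and 63.9, 114 and 175 in miR-142 KO LSKs. WT was below the other 3 groups with no overlap, and CP CML was below BC CML. The KO libraries were the most widely spread, with an SD of 41.7 CPM against 7.47 in CP CML, and overlapped both CML groups. The ratio of means was 2.38 for KO over WT (log2 1.25, SE 0.18), 1.60 for BC CML over CP CML (0.68, SE 0.18) and 1.58 for CP CML over WT (0.66, SE 0.18). Integrin beta 7 is abundant on mast cell progenitors. The mast cell or basophil markers given above, a list not particular to those progenitors, had summed group means of 383 CPM in WT, 3393 in CP CML, 1314 in miR-142 KO and 9757 in BC CML. The group means of Itgb7 and of these markers were both lowest in WT and highest in BC CML. For Itgb7, however, BC CML and KO differed by a log2 of only 0.08 (SE 0.18), so the order of these groups was not resolved. KO lay below CP CML for the markers and above it for Itgb7. The part of mast cells or basophils in the level of Itgb7 was not tested.

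Itga6, which lies on chromosome 2 from 71786939 to 71858427 on the plus strand, followed the miR-142 genotype with smaller steps. It was at 166, 197 and 210.1 CPM (lowest, median and highest) in WT, 187, 215 and 245 in CP CML, 253, 269.5 and 291 in BC CML, and 262, 308 and 368 in miR-142 KO LSKs. Each library without miR-142 was above each library with it. KO over WT was 1.57 (log2 0.65, SE 0.08) and BC CML over CP CML 1.26 (0.33, SE 0.08), while CP CML differed from WT by 0.14 (SE 0.08). Relative to its fellow alpha subunit, Itga6 made up 29.9% ± 2.07 (SD, n = 6) of the per-kb sum of Itga4 and Itga6 in WT, 30.7% ± 4.20 in CP CML, 36.3% ± 3.95 in miR-142 KO and 37.4% ± 1.80 in BC CML.

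Itgb1, the common beta subunit for Itga4 and Itga6, lies on chromosome 8 from 128685654 to 128733579 on the plus strand. It was at 374 to 420.2 CPM in WT, 417 to 445 in CP CML, 428 to 556 in miR-142 KO and 439 to 493 in BC CML LSKs. KO libraries did not overlap with WT (ratio 1.19, log2 0.25, SE 0.05). The BC CML over CP CML ratio was 1.104 (0.14, SE 0.05), with 5 of 6 BC CML libraries above each CP CML library. Set beside Itgb7, the partner balance moved: per kb, Itgb7 was 15.9% ± 2.97 (SD, n = 6) of the sum of both beta subunits in WT, 21.5% ± 1.86 in CP CML, 27.1% ± 7.89 in miR-142 KO and 28.3% ± 2.04 in BC CML LSKs. The BC CML libraries, at 26.1% or more, did not overlap with CP CML, at 25.1% or less.

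Itga4, Itgal and Selplg differed little. Itga4, on chromosome 2 from 79255426 to 79333114 on the plus strand, was at 705 ± 52.1 CPM in WT (SD, n = 6), 757 ± 97.8 in CP CML, 824 ± 53.7 in miR-142 KO and 699 ± 57.5 in BC CML, with overlap between each pair of neighbours. Its sign was opposite in the pair of miR-142 comparisons, 0.22 (SE 0.07) for KO over WT and -0.11 (SE 0.07) for BC CML over CP CML on the log2 scale, and the difference was -0.34 (SE 0.11). Itgal, the alpha subunit of LFA-1, on chromosome 7 from 127296260 to 127335137 on the plus strand, had the same signs, 0.26 (SE 0.10) and -0.15 (SE 0.10). Its groups overlapped at means of 207 ± 38.1 CPM in WT, 243 ± 11.2 in CP CML, 248 ± 34.4 in miR-142 KO and 219 ± 21.97 in BC CML. Selplg, on chromosome 5 from 113817798 to 113830501 on the minus strand, was at 166 ± 21.3 CPM in WT and 181 ± 9.73 in CP CML, and at 207 ± 21.2 in miR-142 KO and 204 ± 15.2 in BC CML LSKs. For Selplg the log2 difference was 0.32 (SE 0.07) in KO over WT and 0.17 (SE 0.07) in BC CML over CP CML, and the groups overlapped.

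Of the 9 genes, 5 were past an adjusted p of 0.05 in BC CML against CP CML, where 38.0% of all tested genes were. The count was 7 in miR-142 KO against WT (all tested genes, 36.3%), 5 in CP CML against WT (45.4%), 2 in BC CML against miR-142 KO (39.6%) and 1, Cxcr2, for the difference of the BC CML minus CP CML and KO minus WT effects (3.99%). Groups did not overlap for 4 genes in BC CML against CP CML (20.7% of all tested genes), 5 in KO against WT (14.5%), 2 in CP CML against WT (21.8%) and 0 in BC CML against KO (10.6%). Nothing is read from these counts, since the genes were chosen with their levels known. Each group enters more than 1 of these comparisons, so they share libraries. The median log2 fold change of the 9 genes was 0.14 in BC CML against CP CML and 0.26 in KO against WT, beside 0.01 over all tested genes in each.

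**Figure D2:**
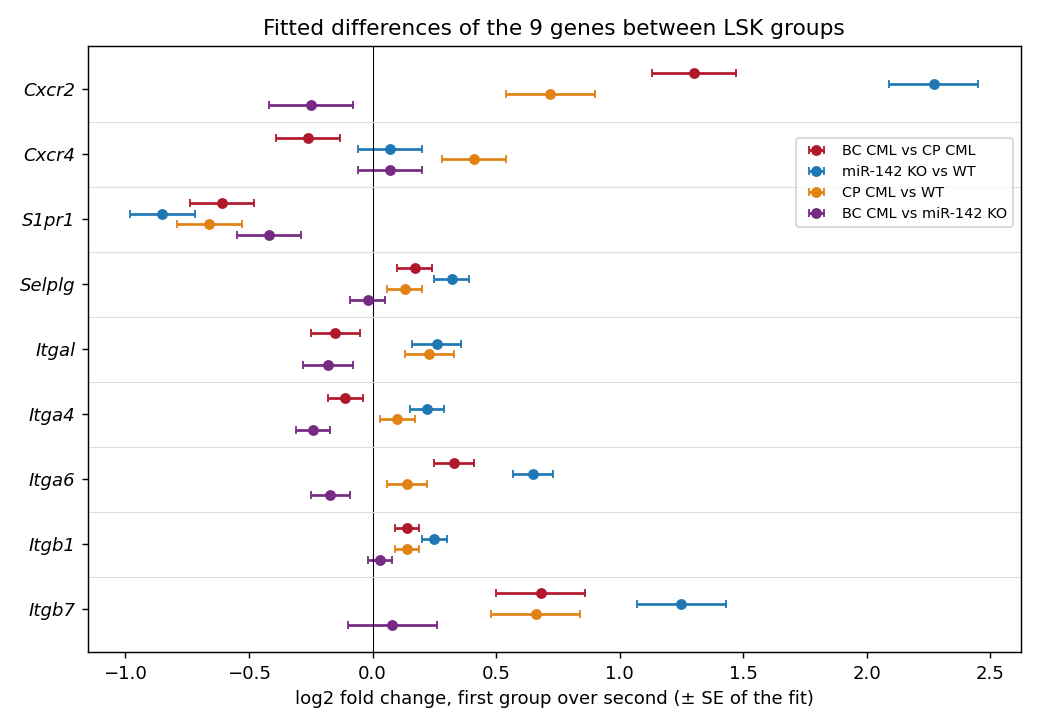
Fitted log2 fold change (x axis, first group over second) of each of the 9 genes (y axis) in 4 comparisons of LSK groups, with the SE of the fit as bars. Cxcr2 reaches 2.27 for miR-142 KO over WT and 1.30 for BC CML over CP CML, S1pr1 is below 0 in each of the 4 comparisons, and BC CML differs little from miR-142 KO for Itgb1 at 0.03, a value whose sign turned to -0.01 under another scaling.

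Sex was a label that the choice of genes had not used, so it could be tested. Over all 24 libraries, 0 of the 9 genes passed an adjusted p of 0.05 for female against male in edgeR's quasi-likelihood test, where 0.895% of all tested genes did. The smallest p belonged to Itgb7, which was higher in females by 0.30 on the log2 scale (SE 0.09, unadjusted p = 0.003593 and adjusted p = 0.113 in edgeR). It was the 1 gene of the 9 with an unadjusted p below 0.05, it passed in DESeq2 (adjusted p = 0.04297) and in edgeR without WT replicate 1 (adjusted p = 0.04561), and the likelihood ratio test of edgeR called 0. The 8 other genes lay between -0.07 and 0.18.

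The sexes were apart for Itgb7 in 1 of the 4 groups. In miR-142 KO LSKs the females were at 129.0, 132 and 175 CPM and the males at 63.9, 71.9 and 99.6 CPM, with no overlap. In the other groups the means of females and males were 48.1 and 45.8 CPM in WT, 76.6 and 71.6 in CP CML, and 125 and 112.5 in BC CML LSKs, and the values overlapped in each. A fit of sex within miR-142 KO, made after these values were seen, gave a log2 difference of 0.89 (SE 0.18, adjusted p = 0.01839, edgeR), where 1.15% of all tested genes passed. The sex difference in KO minus the mean of that in the other groups was 0.78 (SE 0.21, adjusted p = 0.14, edgeR) and did not pass, where 0.0666% of all tested genes did. With 3 libraries of each sex, 1 can decide the call: without 1 KO female (replicate 2), or without either of 2 males (replicates 4 and 5), the adjusted p was 0.1126, 0.1328 and 0.1062 (edgeR). Mast cell or basophil markers summed to 714 to 2762 CPM in KO females and 287 to 2129 in KO males, ranges that overlapped. Between the sexes, the values of Cxcr4 (females 85.5 to 126, males 139 to 149.8 CPM) and Itga4 in KO, and of Cxcr2 in CP CML LSKs (females 13.02 to 13.8, males 8.19 to 9.46 CPM), also did not overlap, with adjusted p of 0.3498, 0.5946 and 0.2908 within their groups (edgeR). Values of 3 against 3 libraries can lie apart by chance, and the share of all tested genes without such overlap was not counted. Nothing is therefore read from the lack of overlap between sexes, that of Itgb7 included.

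**Figure D3:**
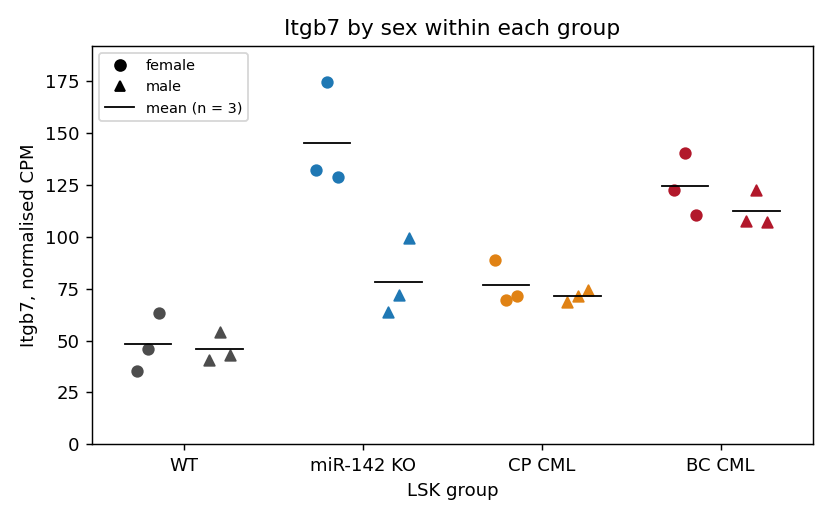
Itgb7 in normalised CPM (y axis, from 0) for the 3 females (circles) and 3 males (triangles) of each LSK group (x axis), with lines at the means. The KO females, at 129.0 to 175, are above the KO males, at 63.9 to 99.6, while the sexes overlap in WT, CP CML and BC CML.

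The wider pathway was read through 9 lists with 203 genes other than those above, of which 182 were tested. These lists were also chosen with earlier results of these data known. Nothing is therefore read from how their shares compare with those of all genes. In BC CML against CP CML LSKs 46 were higher and 38 lower at an adjusted p below 0.05 (46.2% of those tested, beside 38.0% of all genes). In miR-142 KO against WT LSKs 60 were higher and 30 lower (49.5%, beside 36.3%). In CP CML against WT 52 were higher and 36 lower (48.4%, beside 45.4%), and in BC CML against KO 43 were higher and 48 lower (50.0%, beside 39.6%). Of the 84 genes called in BC CML against CP CML and the 90 in KO against WT, comparisons that have no library in common, 55 were called in both, 33 of them higher in both, 20 lower in both and 2 in opposite directions. These 55 were 65.5% of the first set and 61.1% of the second, and over all tested genes the shares were 56.8% and 59.5%. The difference of effects passed for 15 of the 182 genes (8.24%, beside 3.99% of all genes), 4 upward and 11 downward. Between the sexes 1 passed, Grk3, at -0.17 for female minus male on the log2 scale (SE 0.04, adjusted p = 0.04706, edgeR).

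**Figure D4:**
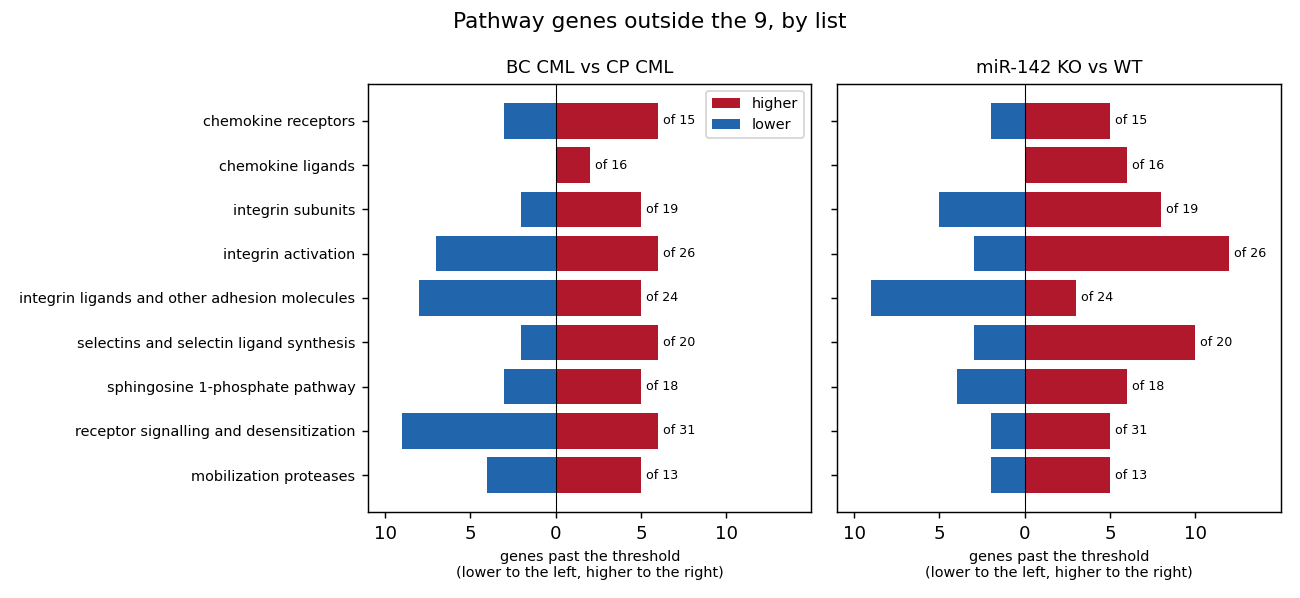
Number of genes past an adjusted p of 0.05 in each pathway list (y axis), higher in the first group to the right and lower to the left (x axis), for BC CML against CP CML and for miR-142 KO against WT LSKs. The text beside each bar gives the genes tested. Selectin and selectin ligand genes have 6 higher and 2 lower, and 10 higher and 3 lower, while adhesion molecules have 5 higher and 8 lower, and 3 higher and 9 lower.

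S1pr3 and S1pr2 were higher in both miR-142 comparisons, in which S1pr1 was lower. Of the S1P pathway list, 5 of 18 tested genes were higher and 3 lower in BC CML against CP CML, and 6 were higher and 4 lower in KO than in WT. S1pr3, a receptor that couples to several G proteins, rose to 90.1 ± 10.4 CPM in BC CML LSKs from 25.8 ± 4.34 in CP CML (log2 fold change 1.81, SE 0.12, adjusted p = 4.074e-11, edgeR). It rose from 21.0 ± 2.95 in WT to 56.6 ± 8.97 CPM in KO LSKs (1.43, SE 0.12, adjusted p = 2.957e-09), with no overlap in either comparison. S1pr2, a receptor that inhibits migration, was 0.54 (SE 0.09) and 0.55 (SE 0.09) higher on the log2 scale in the same comparisons (adjusted p = 4.313e-05 and 3.939e-05, edgeR). Cers6, a ceramide synthase, was 0.47 (SE 0.09) and 0.77 (SE 0.09) higher (adjusted p = 0.0003558 and 1.084e-06, edgeR). These genes were also higher with BCR-ABL. On the log2 scale, CP CML over WT was 0.29 (SE 0.12) for S1pr3, 0.53 (SE 0.09) for S1pr2 and 0.87 (SE 0.09) for Cers6. For BC CML over KO the values were 0.67 (SE 0.11), 0.52 (SE 0.09) and 0.57 (SE 0.09).

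Per kb, the receptors exchanged rank. In this family S1pr4 and S1pr5 were added after their values were seen. S1pr4 gave 46.1% ± 2.53 (SD, n = 6) of the summed level of the 5 receptors in WT and 23.5% ± 2.98 in BC CML LSKs. S1pr3 gave 16.04% ± 2.58 in WT, 21.2% ± 2.15 in CP CML, 35.4% ± 4.14 in miR-142 KO and 46.8% ± 3.84 in BC CML LSKs. S1pr1 gave 21.4% ± 2.02 in WT, 14.8% ± 3.05 in CP CML, 9.79% ± 1.05 in miR-142 KO and 6.07% ± 1.09 in BC CML LSKs. S1pr1 was thus the second most abundant of the family in WT. In CP CML, miR-142 KO and BC CML LSKs alike it was the least abundant of the 4 that were detected above trace. S1pr5 was at 0.047 CPM per kb or less as a group mean. The 3′ UTR of S1pr3 held an 8-base match to the 3p strand, shown because S1pr3 had the largest fold of the family.
S1pr3, 3p strand, chr13:51420233-51420262 (+): tccctgcgttcACACTACAtttattttcca

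**Figure D5:**
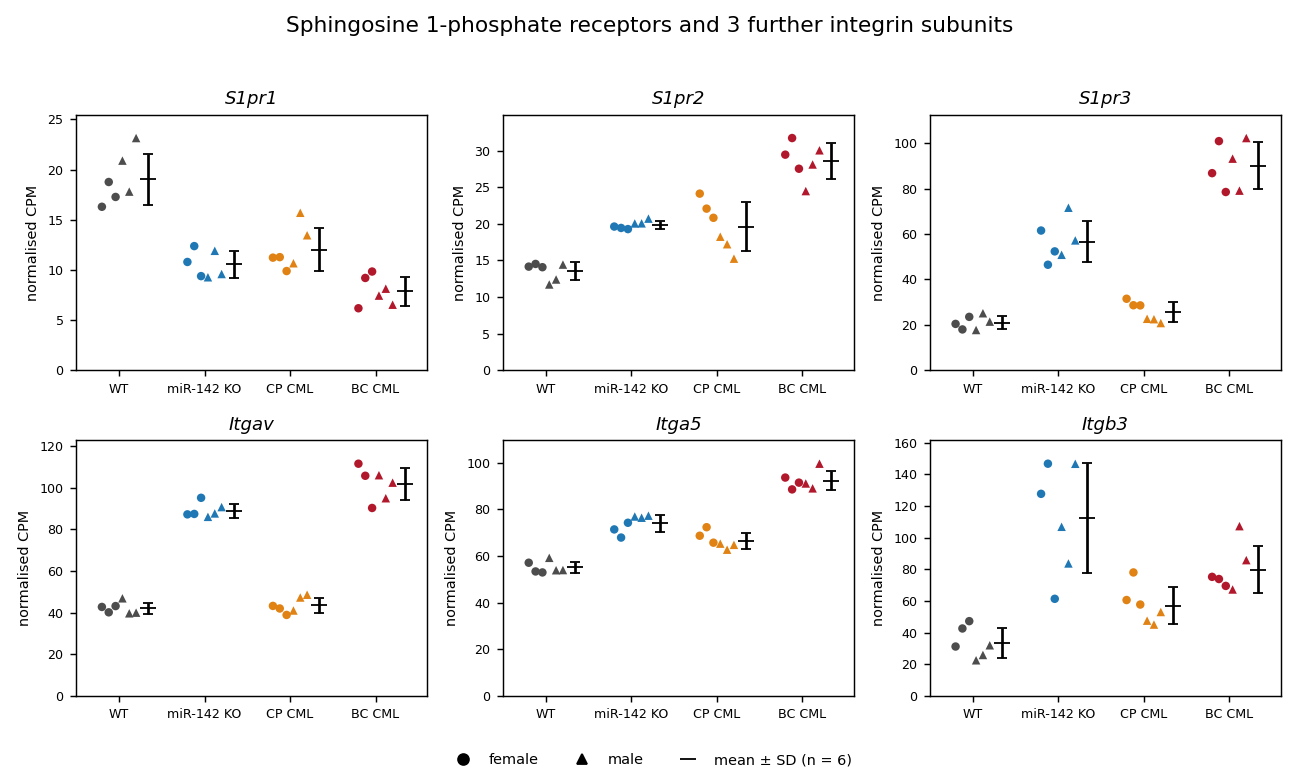
Normalised CPM (y axis, from 0) of S1pr1, S1pr2, S1pr3, Itgav, Itga5 and Itgb3 in each LSK library by group (x axis), with females as circles, males as triangles and the mean ± SD of 6 libraries in black. S1pr3 is at 78.5 to 102 in BC CML libraries and at 20.8 to 31.5 in CP CML, and Itgav is at 85.9 or above in each library without miR-142 and at 48.5 or below in each library with it.

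Among integrin subunits other than those above, 5 of 19 tested were higher and 2 lower in BC CML against CP CML, and 8 were higher and 5 lower in KO than in WT. Itgav, the alpha subunit of the vitronectin receptors, rose from 43.4 ± 3.73 to 101.7 ± 7.85 CPM between CP CML and BC CML (log2 1.23, SE 0.06, adjusted p = 1.128e-13, edgeR). Between WT and KO it rose from 42.0 ± 2.77 to 88.9 ± 3.38 CPM (1.08, SE 0.06, adjusted p = 2.193e-12). Itgav was close in WT and CP CML LSKs, and its libraries were tightly grouped. Rac1 and Gnaq, described below, held an 8-base match to the 3p strand that is not shown. The 3′ UTR of Itgav also held an 8-base match to the 3p strand, shown because Itgav had the smallest p of its list in both comparisons.
Itgav, 3p strand, chr2:83803768-83803797 (+): aggtacacattACACTACAgttgacttcat
Itga5, the alpha subunit of the fibronectin receptor, rose by 0.47 (SE 0.04) in BC CML and by 0.43 (SE 0.04) in KO LSKs (adjusted p = 1.819e-08 and 1.056e-07, edgeR). Itgb3, a partner of Itgav and, in platelets, of Itga2b, rose from 33.6 ± 9.58 in WT to 112.2 ± 34.8 CPM in KO (1.74, SE 0.20, adjusted p = 5.833e-07). Megakaryocyte markers, Itgb3 among the 11 of them, summed to 296 to 416 CPM in WT and 289 to 840.1 in KO libraries. Itga9 fell by 0.57 (SE 0.16) on the log2 scale between CP CML and BC CML (adjusted p = 0.006755, edgeR). Between WT and KO it fell by 1.21 (SE 0.16, adjusted p = 4.182e-06, edgeR). Its 3′ UTR held 2 matches for the 3p strand and 1 for the 5p strand.

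Genes that switch integrins on gave 6 higher and 7 lower of 26 in BC CML against CP CML, and 12 higher and 3 lower in KO against WT. Rassf5, whose product RAPL carries Rap1 signals to LFA-1, fell from 186 ± 9.04 to 126 ± 5.15 CPM in BC CML (log2 -0.57, SE 0.04, adjusted p = 7.887e-10, edgeR) and from 186 ± 11.8 to 140.5 ± 4.89 in KO (-0.40, SE 0.04, adjusted p = 1.911e-07). Stk4, a kinase that acts with it, was 0.17 (SE 0.03) lower in BC CML (adjusted p = 7.199e-05). Fermt3, the kindlin of blood cells, rose by 0.27 (SE 0.05) in KO against WT (adjusted p = 6.695e-05), whereas Fermt2 rose from 0.253 ± 0.118 to 3.72 ± 1.86 CPM in BC CML against CP CML (3.86, SE 0.45, adjusted p = 6.078e-07). Ptk2, the focal adhesion kinase gene, fell by 0.77 (SE 0.13) in KO (adjusted p = 4.781e-05).

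Of 24 tested adhesion molecules outside the integrins, 5 were higher and 8 lower in BC CML against CP CML, and 3 were higher and 9 lower in KO against WT. Emcn, a sialomucin of stem cells and endothelium, fell from 17.0 ± 2.04 to 2.92 ± 1.33 CPM in BC CML (log2 -2.54, SE 0.25, adjusted p = 3.498e-08, edgeR) and from 28.9 ± 4.73 to 3.20 ± 1.42 in KO (-3.17, SE 0.25, adjusted p = 1.489e-09). Robo4, a guidance receptor used by stem cells to stay in the marrow, fell by 1.26 (SE 0.19) and by 1.31 (SE 0.19) in these comparisons (adjusted p = 2.348e-05 and 1.227e-05). Cd9, a tetraspanin, rose by 0.89 (SE 0.12) and 0.77 (SE 0.12) (adjusted p = 5.163e-06 and 2.715e-05). The 15 LSK gate and stem cell markers had 2 higher and 8 lower in BC CML against CP CML, and 3 higher and 7 lower in KO against WT, and their part in these values was not tested.

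In the selectin list, 6 of 20 tested genes were higher and 2 lower in BC CML against CP CML, and 10 were higher and 3 lower in KO against WT. Gcnt1, the core 2 branching enzyme that prepares PSGL-1 for selectins, rose from 91.2 ± 6.89 to 169 ± 12.9 CPM in BC CML (log2 0.89, SE 0.05, adjusted p = 3.561e-12, edgeR) and from 78.4 ± 2.93 to 129.7 ± 3.45 in KO (0.73, SE 0.05, adjusted p = 2.073e-10), with no overlap. Spn, the gene of CD43, rose by 0.30 (SE 0.05) and 0.37 (SE 0.05) (adjusted p = 1.84e-05 and 1.196e-06). C1galt1c1, the chaperone of the core 1 enzyme, was 0.59 (SE 0.12) higher in BC CML (adjusted p = 0.0006528). Selp, the gene of P-selectin itself, rose from 43.6 ± 23.1 to 167 ± 70.1 CPM in KO against WT (1.93, SE 0.29, adjusted p = 1.514e-05). Beside these steps, Selplg differed by the smaller values given above.

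Chemokine receptors other than Cxcr4 and Cxcr2 gave 6 higher and 3 lower of 15 in BC CML against CP CML, and 5 higher and 2 lower in KO against WT. Those with the smallest p were of low level. Ccr8 rose from 0.343 ± 0.196 to 2.98 ± 0.756 CPM in BC CML (adjusted p = 1.496e-05, edgeR) and from 0.0647 ± 0.0874 to 2.14 ± 1.37 in KO (adjusted p = 6.66e-07). Cxcr6 rose from 0.895 ± 0.589 to a mean of 10.8 (7.02 to 12.1) CPM in BC CML (adjusted p = 0.0001146), and in KO it spread from 1.32 to 19.9 CPM and overlapped with WT. Ackr1, a scavenging receptor, rose from 1.69 ± 0.961 to 7.79 ± 2.36 CPM in BC CML (adjusted p = 0.0001101). Ccr7, the receptor for lymph node chemokines, fell from 3.96 ± 0.895 to 1.08 ± 0.587 CPM in KO (adjusted p = 0.0001753, edgeR). The B cell markers given above were also lower in sum in KO than in each WT library, but in WT that sum came mainly from Jchain. Of 16 chemokine ligands, 2 were higher in BC CML against CP CML and 6 in KO against WT. Ccl2, the monocyte attractant, rose from 19.2 ± 5.27 to 49.7 ± 18.4 CPM in BC CML (adjusted p = 0.0001833). Ccl9 was higher by 0.43 (SE 0.16, adjusted p = 0.03819) in BC CML, a call that most fits without 1 library lost (adjusted p of 0.0508 to 0.0942), and rose by 0.82 (SE 0.16, adjusted p = 0.0004299) in KO. In KO against WT, Ccl5 also rose by 1.68 (SE 0.37, adjusted p = 0.0009485) and Ppbp, a ligand of CXCR2, by 1.92 (SE 0.57, adjusted p = 0.01083, and 0.05433 without KO replicate 6). Ppbp was at 5.94 ± 5.58 CPM in KO and 1.57 ± 0.871 in WT, with overlap. It is also among the megakaryocyte markers, of which 7 of 10 tested were higher and 1 lower in KO against WT. The part of such cells in the level of Ppbp was not tested.

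Signalling and desensitization genes downstream of these receptors gave 6 higher and 9 lower of 31 in BC CML against CP CML, and 5 higher and 2 lower in KO against WT. Rac1, the GTPase of cell migration, rose by 0.24 (SE 0.04) and 0.38 (SE 0.04) on the log2 scale (adjusted p = 3.067e-05 and 7.968e-08, edgeR). Grk3, a kinase that desensitizes chemokine receptors, fell from 148 ± 16.5 to 106 ± 11.5 CPM in BC CML (-0.48, SE 0.07, adjusted p = 2.53e-05), while its means in WT and KO were 144 and 142.1 CPM. Gng2, a G protein subunit, fell by 0.46 (SE 0.07, adjusted p = 8.66e-06) in BC CML. In KO, Rgs10, which ends G protein signals, rose by 1.04 (SE 0.14, adjusted p = 2.454e-06), and Gnaq, a G protein alpha subunit, by 0.34 (SE 0.06, adjusted p = 5.708e-05).

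Proteases that cut homing signals gave 5 higher and 4 lower of 13 in BC CML against CP CML, and 5 higher and 2 lower in KO against WT. Dpp4 (CD26), the peptidase that trims CXCL12, fell from 108.5 ± 16.2 to 28.6 ± 6.66 CPM in BC CML (log2 -1.92, SE 0.12, adjusted p = 2.21e-11, edgeR) and from 119 ± 9.91 to 42.2 ± 3.49 in KO (-1.50, SE 0.12, adjusted p = 1.725e-09). Cpd, a carboxypeptidase, rose by 0.86 (SE 0.06) and 0.93 (SE 0.06) (adjusted p = 2.351e-10 and 8.014e-11). Plau, the urokinase gene, rose from 15.1 ± 4.71 to 45.1 ± 11.9 CPM in BC CML (adjusted p = 8.668e-06). Ctsg, the gene of the granule protease cathepsin G, rose from 183 ± 105 to 754 ± 63.5 CPM in KO (adjusted p = 1.675e-06). The 10 neutrophil-primed progenitor markers, Ctsg among them, were all higher in KO than in WT at an adjusted p below 0.05, and summed to 1306 to 5007 CPM in WT and 2942 to 7919 in KO libraries.

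For each of the 9 genes, the tested genes with the most similar profile were found by the root mean square (RMS) difference of log2 CPM over the 24 libraries, each gene centred on its mean, among 12781 other named genes. For Cxcr2, whose own RMS spread was 0.999, the nearest were Ptpru at 0.362 and Dsp at 0.387. For S1pr1, with a spread of 0.501, they were Ccdc173 at 0.177 and Mctp2 at 0.188. Tulp4 at 0.236 and Map3k15 at 0.24 lay nearest to Itgb7, with a spread of 0.608, and Cpped1 at 0.12 and Sept11 at 0.124 to Itga6, with a spread of 0.286. The remaining genes vary so little that a flat profile is also near: Selplg (spread 0.179) had Os9 at 0.087 and Npc2 at 0.094, Itgb1 (0.135) had Dars at 0.066 and AI314180 at 0.068, and Itgal (0.203) had Nup210 at 0.121 and Incenp at 0.137. Itga4 (0.153) had Atad5 at 0.113 and Foxp1 at 0.115, and Cxcr4 (0.27) had Slc25a22 at 0.208 and Wdr81 at 0.211.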

How the data were processed

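Each of 4 groups had 6 libraries of sorted LSKs; the study's methods state another number, so all deposited libraries were kept. The deposited values are raw read counts for each gene, with a gene length beside them. Per the methods and the submitters' processing notes, the authors used Trimmomatic and FASTP for trimming, STAR 2.6.0 for mapping to mm10 and HTSeq 0.11.1 for counting; annotation and strand setting are not given in the sources used here. The methods count replicates as mice, and the labels do not tie each library to a mouse.

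The 9 genes, the pathway lists and the marker lists were chosen with earlier results of these data known. Of 24091 genes, 13520 passed filterByExpr and were tested in edgeR 4.0.16 (R 4.3.3): TMM, 1 quasi-likelihood fit over 24 libraries with a mean per group, and Benjamini-Hochberg adjustment over all tested genes, threshold 0.05. Female against male used a mean per group and sex. Pathway genes were named as up to 3 per list and miR-142 comparison with the smallest p and a mean of at least 1 CPM. Replicates are numbered in accession order, which pairs nothing. The closest libraries differed by a chi-square of 6.07 per degree of freedom, so none was a repeat. The fit was also run on simulated counts that gave all genes the same spread, unlike these data, and nothing is drawn from that run. Alternatives were the likelihood ratio test, DESeq2 1.42.0, other scalings and filters, sex as a covariate, only the 12 libraries compared, a fold limit and each library left out. Counting error limits the genes of low level.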

Additional observations from a re-analysis of the deposited data

Results flagged for a closer look

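Of 36 sets of 6 libraries (9 genes in 4 groups), 3 had a library far from the rest by Dixon's criterion, which flags about 1 set in 20 by chance. Itga4 was lowest in 1 BC CML male at 587.7 CPM, Itgb1 was lowest in 1 BC CML female at 439.0 CPM, and Itgb7 was highest in 1 CP CML female at 88.84 CPM. For 7 of the pathway genes described above, the change from CP CML to BC CML differed from that from WT to miR-142 KO by a test of the difference in edgeR. That test passed for 8.24% of the 182 tested pathway genes, beside 3.99% of all tested genes. The genes described had been named for a small p in 1 or both of these comparisons, which favours a difference. Nothing is therefore read from their number, and their adjusted p is given as a description. The difference was 2.39 on the log2 scale for Ackr1, -2.29 for Ccl5, 4.86 for Fermt2, -0.26 for Fermt3, -0.46 for Grk3, -1.25 for Itgb3 and 1.70 for Plau, with adjusted p of 0.0002623 to 0.02277 in edgeR. Each of these 7 differences kept its sign and its call in all 24 fits that left out 1 library, except that of Ackr1, which had an adjusted p of 0.05664 in edgeR without WT replicate 5. For Cxcr2 the difference was -0.97, which is a description and carries no test, since the choice of genes had used its levels.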

How the results depend on the processing

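The 1431 values of the 9 genes between groups under other settings all moved by less than the spread between libraries, and none that was called turned its sign. When calls also needed an absolute log2 fold change of 1, pathway calls were 28 of 84 in BC CML against CP CML, 37 of 90 in miR-142 KO against WT, 32 of 88 in CP CML against WT, 30 of 91 in BC CML against KO and 8 of 15 for the difference of effects, and calls over all genes were 992 of 5137, 1054 of 4907, 930 of 6143, 828 of 5358 and 168 of 539. In the other fits the pathway counts stayed within 1.5 times, with 74 to 91, 80 to 93, 80 to 96, 76 to 105 and 13 to 21 when 1 library was left out. Of the 9 genes, 0 were called between sexes, 1 (Itgb7) in DESeq2 and 0 to 1 without 1 library (Itgb7, adjusted p = 0.04561 without WT replicate 1, edgeR). The sex difference of Itgb7 within miR-142 KO was 0.73 to 1.08 without 1 library and lost its call in 3 of 6 such fits, and its settings were chosen after seeing the data. In that fit 155 genes of all were called, 411 by the likelihood ratio test, 497 by DESeq2 and 28 to 333 without 1 library. Of 1696 values of the named pathway genes, 19 lost the call, 18 of them Ccl9 in BC CML against CP CML and 1 Ppbp in KO against WT. Over all genes, DESeq2 called 891 for the difference of effects against 539, and 424 between sexes against 121, where the likelihood ratio test called 318 and the fold limit left 20. Upper quartile scaling moved the split of all calls from 2757 higher and 2380 lower to 2162 and 2932 in BC CML against CP CML, and from 2685 and 2222 to 2115 and 2918 in KO against WT. For the difference of effects, a filter of 1 CPM in 6 libraries moved it from 258 and 281 to 217 and 357. The nearest profiles stayed the same with a prior count of 0.5.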
